A study of Mus musculus with 9 samples.

Results

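The genes described here are 9 markers of thalamic nuclei, Tcf7l2, Lef1, Rora, Prkcd, Ptpn3, Plekhg1, Calb1, Tnnt1 and Cck, taken by symbol from a table of read counts. All 9 were among the 18956 symbols of the table and among the 18194 that passed the filter on low counts. They were chosen by name for expression in thalamic nuclei and with measured values of these same libraries already in view, among them the fall of Ptpn3 under defeat. Their calls below are therefore a description of these libraries and no independent evidence of a direction. Bulk RNA had been sequenced from BALB/c mouse brain, and the labels give the tissue as the anterior part of the paraventricular thalamic nucleus, a midline nucleus. The 3 groups, each of 3 libraries, are called here SHNK mice (social defeat, smSDS, for 5 days and then listed under treatment SHNK, which is (2S,6S)-HNK, a ketamine metabolite of the hydroxynorketamine class), defeated saline mice (the same defeat and saline) and non-stressed saline mice (no defeat and saline). Strain and tissue were shared by all 3 groups. The labels used here give no sex, age, dose or time of dissection. The labels do not tell separate animals from pools or repeat libraries, so a p-value here speaks only of the spread among the libraries at hand.

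Most thalamic nuclei relay information to the cortex through excitatory neurons that share a set of transcription factors, while the midline nuclei, which include the paraventricular nucleus, project to limbic targets. Tcf7l2 is the hallmark transcription factor of thalamic neurons and, like Lef1, binds DNA through an HMG box and acts with beta-catenin in Wnt signalling. Rora, Prkcd, Ptpn3, Plekhg1 and Tnnt1 are known as genes of thalamic neurons, whereas Calb1, a calcium-binding protein, and Cck, a neuropeptide, are more typical of midline and higher-order nuclei. Tcf7l2 is also made in the habenula, which borders the paraventricular nucleus.

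Libraries held from 32307869 to 51569143 counts, and the lowest count of any of the 9 genes in any library was 845. Counting error is not small beside the spread in every group, since the coefficient of variation was 1.65% for Ptpn3 in non-stressed saline mice (counts of 1055 to 1467) and 1.60% for Lef1 in defeated saline mice (counts of 1835 to 2458). Of 12 genes listed for the paraventricular thalamus, all were in the table, as were complete lists for other tissues, so presence alone does not check the label. Among them, Calb2 averaged 1838 ± 193 CPM (read counts relative to library size, with edgeR's TMM scaling) in SHNK mice, 2096 ± 371 CPM in defeated saline mice and 2033 ± 113 CPM in non-stressed saline mice (SD, n = 3 each). Its dopamine receptor genes were low, with Drd2 at 4.88, 6.69 and 6.50 CPM and Drd3 at 0.422, 0.567 and 0.571 CPM in the same order of groups. The groups also differed in genes of neighbouring tissue. The summed level of 11 habenula genes was 41.9 to 47.1 CPM in SHNK mice, 258 to 826 CPM in defeated saline mice and 78.7 to 146 CPM in non-stressed saline mice, and that of 10 ependyma genes was 110 to 166, 191 to 287 and 103 to 121 CPM. In bulk tissue, fewer cells of a type and less RNA per cell cannot be told apart.

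SHNK mice against defeated saline mice compared defeated groups whose labels differ in treatment, and which also differed in the habenula and ependyma sums above. Of the 9 thalamic genes, 8 rose and 0 fell at an edgeR adjusted p under 0.05, where 2.45% of all 18194 genes rose and 3.96% fell. Tcf7l2 did not pass. The 8 genes had libraries that did not overlap between the groups, with the SHNK mice higher, as had 14.4% of all genes. Log2 fold changes ran from 0.12 for Tcf7l2 to 0.81 for Cck and Tnnt1, with a median of 0.62 (-0.0091 over all genes, of which 48.7% were above 0). Summed over the 9 genes, the level was 2759, 2948 and 3288 CPM in SHNK mice, against 2158, 1979 and 2136 CPM in defeated saline mice. The number that rose was 4 without SHNK replicate 2, 4 without SHNK replicate 3 and 5 without defeated saline replicate 2. Over all genes 70, 47 and 90 rose in these same fits, against 446 with every library. Calb1, Ptpn3, Plekhg1 and Cck passed whichever of the 9 libraries was left out.

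Defeated saline mice against non-stressed saline mice compared saline groups whose labels differ in defeat, and which also differed in the habenula and ependyma sums. All 9 log2 fold changes were below 0, from -0.56 for Ptpn3 to -0.11 for Tcf7l2, with a median of -0.37 (-0.017 over all genes, of which 54.5% were below 0). Ptpn3 fell and the other 8 did not pass, where 0.0165% of all genes, or 3 in number, fell. Libraries did not overlap, with the defeated saline mice lower, for 6 genes (Calb1, Ptpn3, Plekhg1, Rora, Lef1 and Tnnt1), as for 5.53% of all genes. The summed level of the 9 genes in non-stressed saline mice was 2613, 2429 and 2568 CPM. The number past the threshold was 0 in a fit of the compared groups only, and without SHNK replicate 2 or 3, defeated saline replicate 1 or 2 or any of the non-stressed saline replicates.

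SHNK mice against non-stressed saline mice, the groups that differ in both defeat and treatment, gave log2 fold changes above 0 for all 9 genes, from 0.0050 for Tcf7l2 to 0.42 for Cck (median 0.26, against -0.0049 over all genes, of which 49.2% were above 0). None passed by edgeR. DESeq2 called 2 (Calb1 and Cck, both higher) and limma voom 0. Over all genes DESeq2 called 985, of which 332 were higher, and limma voom 1. EdgeR called 0.0055% of all genes, a single gene. For 4 genes (Calb1, Ptpn3, Plekhg1 and Prkcd) every SHNK library was above every non-stressed saline library, as for 9.83% of all genes. The 3 comparisons share libraries pairwise, so a low level in defeated saline mice enters the first comparison as a rise and the second as a fall.

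**Figure D1:**
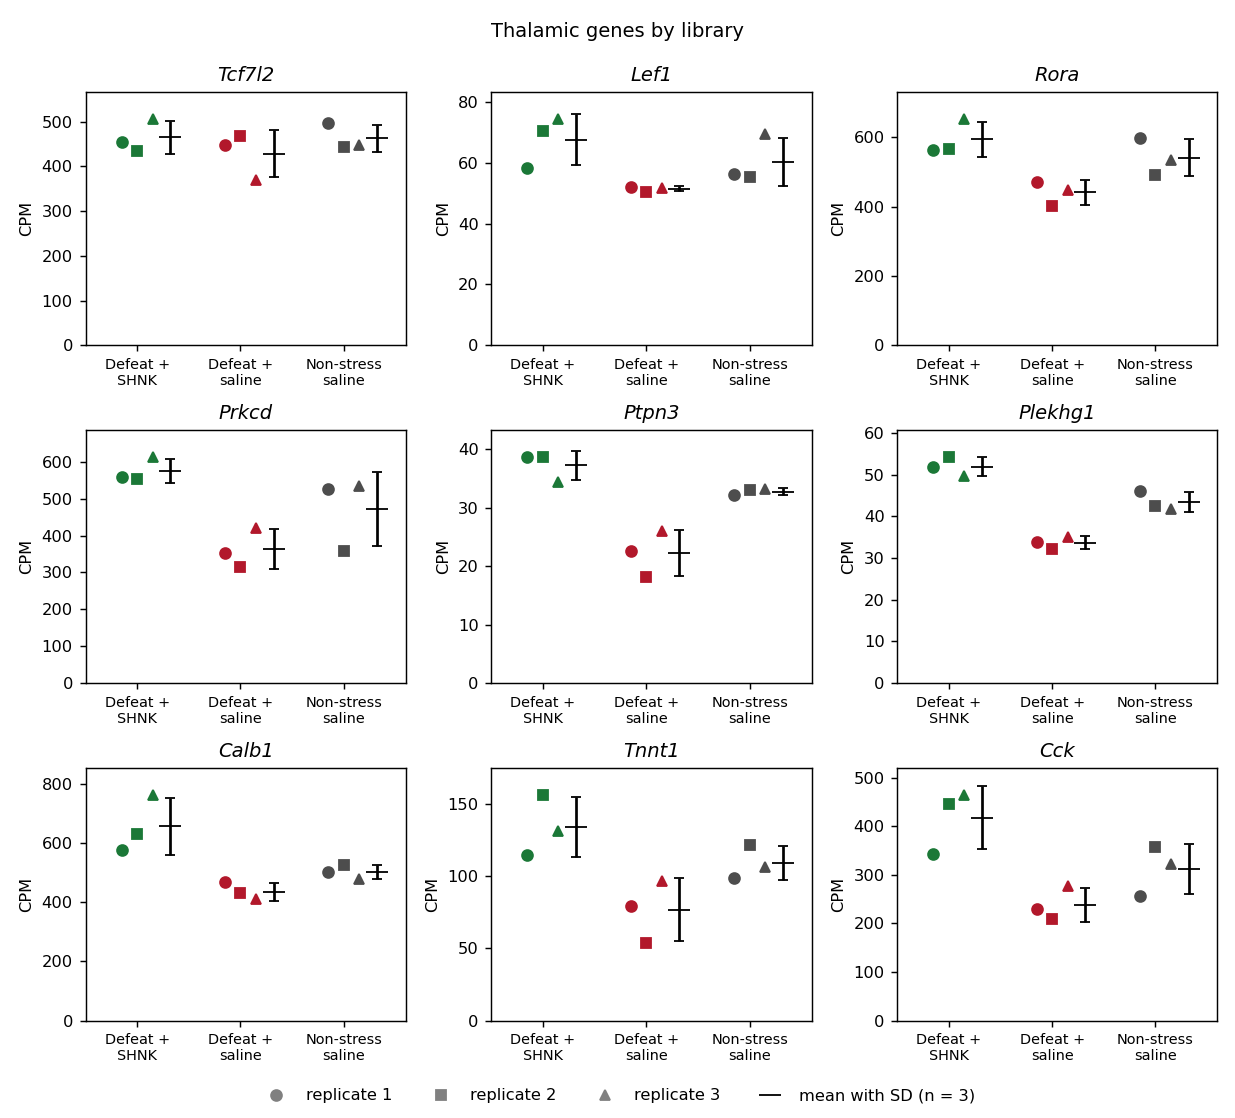
Level of each thalamic gene in CPM (vertical axes start at 0) in SHNK mice, defeated saline mice and non-stressed saline mice; symbols are libraries, and the black mark is the mean with SD (n = 3). Apart from Tcf7l2, each gene has its 3 SHNK libraries above its 3 defeated saline libraries, as for Plekhg1 at 49.7 to 54.2 against 32.1 to 35.1 CPM.

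**Figure D2:**
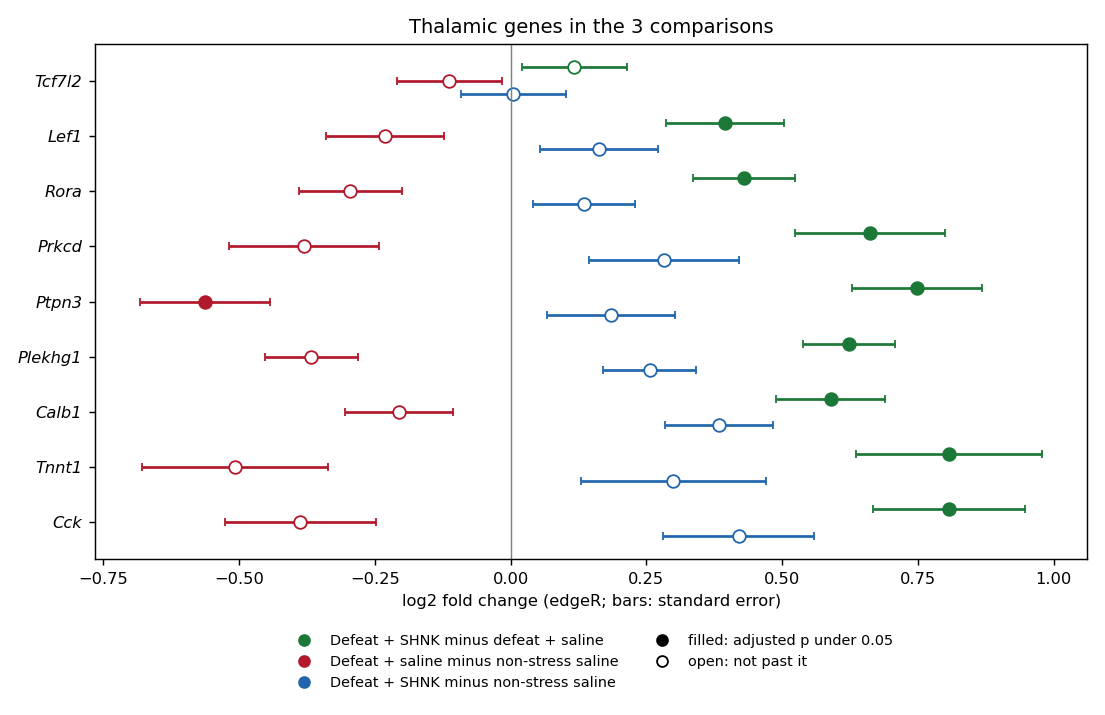
Log2 fold change with its standard error for the 9 genes in the 3 comparisons (edgeR); filled points passed an adjusted p of 0.05. Green points lie from 0.12 to 0.81, red points from -0.56 to -0.11 and blue points from 0.0050 to 0.42.

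The promoter sequences of 3 genes are shown because Cck and Tnnt1 had the largest log2 fold changes in SHNK mice against defeated saline mice and Tcf7l2 the smallest. The windows come from RefSeq on GRCm38.p6 and run from 250 bases before to 50 after an annotated start, the most upstream window where a gene has several, 5′ to 3′ on the gene's strand. Capitals mark matches to the TATA box TATAAA, the GC box GGGCGG or the sequence TGCGTCA, a variant of the cyclic AMP response element that was added after the windows were seen, on either strand.
Cck chr9:121495645-121495944 (- strand): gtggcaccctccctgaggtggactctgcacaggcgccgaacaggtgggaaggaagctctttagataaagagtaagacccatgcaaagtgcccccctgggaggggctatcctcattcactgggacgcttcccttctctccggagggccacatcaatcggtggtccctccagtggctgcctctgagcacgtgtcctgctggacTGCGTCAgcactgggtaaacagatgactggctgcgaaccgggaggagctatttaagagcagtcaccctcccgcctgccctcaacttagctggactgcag
Tnnt1 chr7:4515926-4516225 (- strand): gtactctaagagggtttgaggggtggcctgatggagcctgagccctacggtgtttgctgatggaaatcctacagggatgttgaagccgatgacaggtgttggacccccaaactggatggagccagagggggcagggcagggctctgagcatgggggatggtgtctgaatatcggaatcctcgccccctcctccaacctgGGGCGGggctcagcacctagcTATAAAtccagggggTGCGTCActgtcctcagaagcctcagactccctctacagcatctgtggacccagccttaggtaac
Tcf7l2 chr19:55741560-55741859 (+ strand): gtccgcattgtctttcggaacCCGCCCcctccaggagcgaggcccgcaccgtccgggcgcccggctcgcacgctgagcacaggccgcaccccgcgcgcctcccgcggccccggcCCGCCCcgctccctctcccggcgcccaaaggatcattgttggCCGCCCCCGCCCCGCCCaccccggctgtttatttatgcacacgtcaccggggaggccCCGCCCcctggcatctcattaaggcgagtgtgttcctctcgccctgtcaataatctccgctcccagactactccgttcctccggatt
TGCGTCA stood 49 bases before the start in Cck and 15 before it in Tnnt1, and 2.12% of all 32851 promoter windows hold it on either strand. Tnnt1 also holds TATAAA 30 bases before its start (13.6% of all windows hold it) and GGGCGG 51 bases before it (35.7%), and the Tcf7l2 window holds GGGCGG on its other strand at 6 places, some next to each other. RefSeq windows were matched for 8 of the 9 genes. The most upstream windows of these 8 held no ATCAAAG, the TCF and LEF core (3.73% of all windows), no AGGTCA, the core of ROR response elements (16.3%), and no TGACGTCA, the full cyclic AMP response element (1.79%). The windows of Plekhg1 (chr10:3872417-3872716) and Ptpn3 (chr4:57301788-57302087) lie well inside the gene spans given below. For these genes the outermost start was not searched. Nor was it for Rora, whose window (chr9:68653536-68653835) begins inside its gene span. The Prkcd window (chr14:30626159-30626458) holds the outer end of its span, with fewer than 250 bases before it. The GC content was 59.3% for Cck, 58.3% for Tnnt1 and 70.0% for Tcf7l2, beside a median of 52.7% over all windows.

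Among the transcription factors, Tcf7l2 (chr19:55741797-55933659) moved least of the 9 genes in each of the 3 comparisons. It had 454, 435 and 506 CPM in SHNK mice, 447, 469 and 369 CPM in defeated saline mice and 498, 445 and 447 CPM in non-stressed saline mice. The 3 groups overlapped in every pair. Its log2 fold change was 0.12 ± 0.097 in SHNK mice against defeated saline mice (standard error, edgeR adjusted p = 0.516) and -0.11 ± 0.097 in defeated saline against non-stressed saline mice (edgeR adjusted p = 0.868). Against non-stressed saline mice the SHNK value, 0.0050 ± 0.097, changed sign with limma voom (-0.035) and without SHNK replicate 3 or non-stressed saline replicate 2 or 3 (-0.059, -0.024 and -0.020). Whether Tcf7l2 differs from the other 8 in its change was not tested.

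Lef1 (chr3:131110297-131224357), the other HMG box factor, had 58.3, 70.4 and 74.4 CPM in SHNK mice, 52.2, 50.6 and 51.7 CPM in defeated saline mice and 56.3, 55.4 and 69.5 CPM in non-stressed saline mice. The defeated saline libraries lay within a narrow band below all the others. Lef1 rose by 0.39 ± 0.11 in SHNK mice against defeated saline mice (edgeR adjusted p = 0.0461), the value nearest to the threshold. It did not pass without SHNK replicate 2 or 3 (edgeR adjusted p = 0.164 and 0.214), without defeated saline replicate 1, 2 or 3 (0.107, 0.132 and 0.0959) or without non-stressed saline replicate 1 (0.0512). Defeated saline against non-stressed saline mice gave -0.23 ± 0.11 (edgeR adjusted p = 0.537). Of the exonic bases of Lef1, 34.5% also lie in the antisense gene Gm43352, whose reads cannot be told apart from those of Lef1 unless counting used strand, which is not stated.

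Rora (chr9:68653404-69388246), a nuclear receptor of the retinoic acid receptor-related orphan family, had 564, 566 and 652 CPM in SHNK mice, 472, 402 and 449 CPM in defeated saline mice and 597, 492 and 534 CPM in non-stressed saline mice. Every defeated saline library was below every library of the other groups, which overlapped each other. Rora rose by 0.43 ± 0.094 in SHNK mice against defeated saline mice (edgeR adjusted p = 0.0183). This did not pass without SHNK replicate 2 or 3 or defeated saline replicate 2 (edgeR adjusted p = 0.0565, 0.106 and 0.0827). Its log2 fold change was -0.29 ± 0.094 in defeated saline against non-stressed saline mice (edgeR adjusted p = 0.211) and 0.14 ± 0.094 in SHNK against non-stressed saline mice (0.481).

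Among the signalling genes, Prkcd (chr14:30595353-30626414), which encodes protein kinase C delta, had 559, 553 and 613 CPM in SHNK mice, 352, 316 and 422 CPM in defeated saline mice and 526, 357 and 535 CPM in non-stressed saline mice. Non-stressed saline replicate 2 stood at the level of the defeated saline libraries, and its group overlapped with them. Prkcd rose by 0.66 ± 0.14 in SHNK mice against defeated saline mice (edgeR adjusted p = 0.0151), a 1.58-fold difference. It did not pass without SHNK replicate 2 or 3 or defeated saline replicate 2 (edgeR adjusted p = 0.0524, 0.0883 and 0.0693). The other log2 fold changes were -0.38 ± 0.14 in defeated saline against non-stressed saline mice (edgeR adjusted p = 0.320) and 0.28 ± 0.14 in SHNK against non-stressed saline mice (0.298).

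Ptpn3 (chr4:57190841-57339040) encodes a cytosolic tyrosine phosphatase with FERM and PDZ domains. It had 38.7, 38.6 and 34.4 CPM in SHNK mice, 22.5, 18.1 and 26.0 CPM in defeated saline mice and 32.2, 33.0 and 33.1 CPM in non-stressed saline mice. The 3 groups did not overlap in any pair, with SHNK mice at the top and defeated saline mice at the bottom. Ptpn3 rose by 0.75 ± 0.12 in SHNK mice against defeated saline mice (edgeR adjusted p = 0.00456) and had a log2 fold change of 0.19 ± 0.12 in SHNK against non-stressed saline mice (edgeR adjusted p = 0.438). It fell by 0.56 ± 0.12 in defeated saline against non-stressed saline mice (edgeR adjusted p = 0.0349). This fall missed the threshold in the fit of the compared groups only (0.0791), without SHNK replicate 2 or 3 (0.0517 and 0.0509), without defeated saline replicate 1 or 2 (0.0661 and 0.172) and without non-stressed saline replicate 1, 2 or 3 (0.0950, 0.105 and 0.0818).

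Plekhg1 (chr10:3740251-3967303) encodes a guanine nucleotide exchange factor of small GTPases and had the smallest standard errors of the 9 genes. Its level was 51.8, 54.2 and 49.7 CPM in SHNK mice, 33.9, 32.1 and 35.1 CPM in defeated saline mice and 46.2, 42.5 and 41.7 CPM in non-stressed saline mice. As for Ptpn3, the 3 groups did not overlap in any pair and had the same order. Plekhg1 rose by 0.62 ± 0.085 in SHNK mice against defeated saline mice (edgeR adjusted p = 0.00169). In defeated saline against non-stressed saline mice the log2 fold change was -0.37 ± 0.086 (edgeR adjusted p = 0.0554), which DESeq2 called (-0.37 ± 0.093, adjusted p = 0.00641). SHNK against non-stressed saline mice gave 0.26 ± 0.085 (edgeR adjusted p = 0.139).

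Calb1 (chr4:15881264-15906709) encodes calbindin, which buffers calcium. It had 574, 629 and 762 CPM in SHNK mice, 468, 430 and 409 CPM in defeated saline mice and 501, 526 and 479 CPM in non-stressed saline mice. No pair of groups overlapped, although the lowest non-stressed saline library was close to the highest defeated saline library. Calb1 rose by 0.59 ± 0.0996 in SHNK mice against defeated saline mice (edgeR adjusted p = 0.00560). It had -0.21 ± 0.099 in defeated saline against non-stressed saline mice (edgeR adjusted p = 0.561) and 0.38 ± 0.099 in SHNK against non-stressed saline mice (edgeR adjusted p = 0.0901, DESeq2 adjusted p = 0.0130).

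Tnnt1 (chr7:4504569-4515975), the slow skeletal muscle form of troponin T that thalamic neurons also transcribe, had 115, 157 and 131 CPM in SHNK mice, 79.7, 53.6 and 97.0 CPM in defeated saline mice and 98.8, 122 and 107 CPM in non-stressed saline mice. Its coefficient of variation in defeated saline mice, 28.5%, was the highest of any of the 9 genes in any group. Tnnt1 rose by 0.81 ± 0.17 in SHNK mice against defeated saline mice (edgeR adjusted p = 0.0162), a call lost without SHNK replicate 2 or 3 (edgeR adjusted p = 0.0839 and 0.0744). Defeated saline libraries were all below non-stressed saline libraries, the nearest pair being 97.0 and 98.8 CPM. The log2 fold change was -0.51 ± 0.17 there (edgeR adjusted p = 0.246) and 0.30 ± 0.17 in SHNK against non-stressed saline mice (0.375).

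Cck (chr9:121489824-121495694) encodes the precursor of cholecystokinin, a peptide transmitter. It had 343, 445 and 465 CPM in SHNK mice, 230, 209 and 277 CPM in defeated saline mice and 257, 358 and 322 CPM in non-stressed saline mice. SHNK libraries were all above the defeated saline libraries, while the non-stressed saline libraries overlapped with both groups. Cck rose by 0.81 ± 0.14 in SHNK mice against defeated saline mice (edgeR adjusted p = 0.00639), a 1.75-fold difference. Its log2 fold change was -0.39 ± 0.14 in defeated saline against non-stressed saline mice (edgeR adjusted p = 0.306) and 0.42 ± 0.14 in SHNK against non-stressed saline mice (edgeR adjusted p = 0.137, DESeq2 adjusted p = 0.0428).

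Within the defeated saline group, replicate 2 had the lowest level of 7 of the 9 genes and the highest of Tcf7l2, and it also had the highest habenula sum (826 CPM, against 258 and 477 CPM in replicates 1 and 3) and ependyma sum (287 CPM, against 191 and 235 CPM). Replicate 1, with the lowest habenula sum of that group, had the highest level of 3 of the genes, and replicate 3, with the middle habenula sum, that of 5. Across groups the summed level of the 9 genes was lowest in defeated saline mice, where the habenula and ependyma sums were highest. Between the other groups, SHNK mice had the higher sum of the 9 genes and the lower habenula sum. Their ependyma genes did not follow that order, with 9 of 10 log2 fold changes above 0 against non-stressed saline mice. All 11 habenula genes tested were lower in SHNK mice than in defeated saline mice by edgeR (10 without SHNK replicate 2 or 3), and 10 were higher in defeated saline than in non-stressed saline mice (2 without non-stressed saline replicate 1). Of 10 ependyma genes, 7 fell in SHNK mice against defeated saline mice (0 without SHNK replicate 3), and 9 rose in defeated saline against non-stressed saline mice (3 without non-stressed saline replicate 1). Over all 18194 genes, 210 rose in defeated saline against non-stressed saline mice, and 50 without non-stressed saline replicate 1. The summed level of 8 genes of neurons in general was 5801 to 6950 CPM in SHNK mice, 4901 to 5186 CPM in defeated saline mice and 5364 to 5691 CPM in non-stressed saline mice. Snap25 was the largest part of that sum, with means of 3039 CPM in SHNK mice and 2112 CPM in defeated saline mice. Of the 8 genes, 3 rose in SHNK mice against defeated saline mice (1 without SHNK replicate 3). There 6 of the 8 log2 fold changes were above 0 and 2 below. Mean Map2 was lower in SHNK mice (152 against 188 CPM), as was Rbfox3 (111 against 116 CPM). The summed level of 10 astrocyte genes was 3528 to 3798 CPM in SHNK mice, 3957 to 5123 CPM in defeated saline mice and 4528 to 4704 CPM in non-stressed saline mice. Of these 10 genes, 6 fell in SHNK mice against defeated saline mice (3 without SHNK replicate 2 or 3), with a median log2 fold change of -0.43. The part of these other tissues and cell types in the levels of the thalamic genes was not tested.

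**Figure D3:**
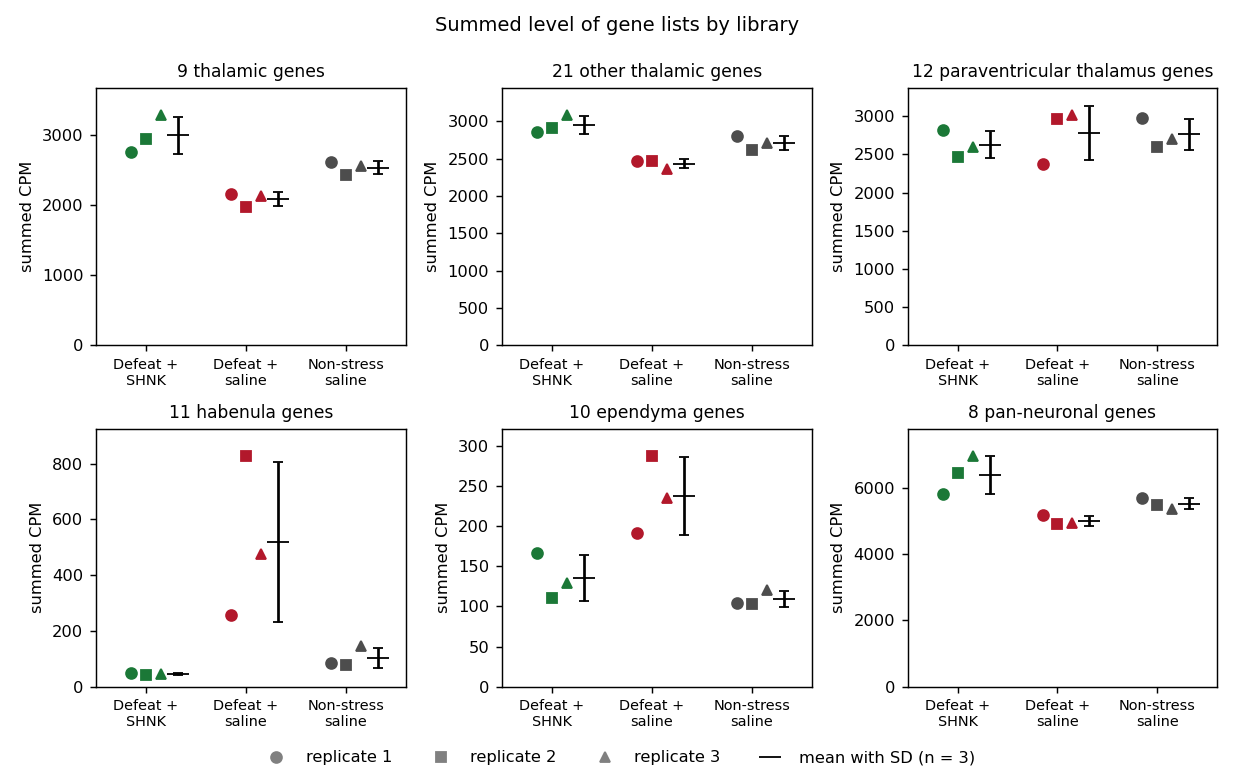
Summed CPM of 6 gene lists (vertical axes start at 0) by library in SHNK mice, defeated saline mice and non-stressed saline mice; symbols are replicates, and the black mark is the mean with SD (n = 3). The sums of the 9 thalamic genes, the 21 other thalamic genes and the 8 neuronal genes are lowest in defeated saline mice. Sums of habenula and ependyma genes are highest there. The sum of the 12 paraventricular thalamus genes, mostly Calb2 and Slc17a6, overlaps between all groups.

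A list of 21 other genes of thalamic nuclei gave 7 higher and 1 lower in SHNK mice against defeated saline mice by edgeR, with a median log2 fold change of 0.27. The number higher was 3 without SHNK replicate 2 or 3 or without defeated saline replicate 2. Ramp3, a receptor activity-modifying protein, rose by 0.55 ± 0.091 (edgeR adjusted p = 0.00525) and Plcb4, a phospholipase C, by 0.50 ± 0.089 (0.00743). Shox2, a homeobox factor, rose by 0.45 ± 0.090 (edgeR adjusted p = 0.0126), a call lost without SHNK replicate 2 or 3 or defeated saline replicate 2 (at most 0.0718). The gene that fell was Sox2 (-0.41 ± 0.084), which astrocytes and ependyma also express, and it missed the threshold without SHNK replicate 2 or 3 (at most 0.0801). In defeated saline against non-stressed saline mice the median of the list was -0.16. The 12 genes of the paraventricular nucleus itself gave 0 higher and 1 lower in SHNK against defeated saline mice, with a median of -0.32. The gene that fell was the neuropeptide FF receptor Npffr1 (-0.55 ± 0.14, edgeR adjusted p = 0.0370), and the count was 0 without any of the SHNK replicates or defeated saline replicate 2 or 3. For the 12 genes together, summed levels were 2469 to 2816, 2380 to 3015 and 2596 to 2982 CPM in SHNK, defeated saline and non-stressed saline mice. None of the 12 passed in defeated saline against non-stressed saline mice.

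Relatives and partners of the 9 genes were examined in SHNK mice against defeated saline mice. Of 26 Wnt and TCF partners, 0 rose and 4 fell by edgeR (0 fell without SHNK replicate 2 or 3 or defeated saline replicate 2), with a median log2 fold change of -0.17. The 4 were the TCF family member Tcf7l1 (-0.69 ± 0.16) and the corepressors Tle2 (-0.91 ± 0.23), Tle4 (-0.51 ± 0.13) and Ctbp2 (-0.85 ± 0.19), with group means from 5.56 to 18.1 CPM. Besides the libraries just named, Tcf7l1, Tle2 and Tle4 lost their calls without defeated saline replicate 1, Ctbp2 without defeated saline replicate 3 and Tle4 without SHNK replicate 1. Ctnnb1, which encodes beta-catenin, had -0.065 ± 0.085 (edgeR adjusted p = 0.696), and the remaining family member Tcf7 had -0.76 ± 0.22 (0.0553). Tcf7 passed with DESeq2 (adjusted p = 0.0105), with limma voom (0.0360), with a filter of 1 CPM in 3 libraries (0.04995) and without defeated saline replicate 1 (0.0378) or non-stressed saline replicate 2 (0.0485). In defeated saline against non-stressed saline mice none of the 26 passed by edgeR.

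Rorb, a paralogue of Rora, had a log2 fold change of 0.26 ± 0.096 in SHNK mice against defeated saline mice (edgeR adjusted p = 0.122). Of 8 other protein kinase C genes, Prkcq alone passed, and it fell to 10.9 ± 1.21 CPM in SHNK mice, against 63.7 ± 33.0 CPM in defeated saline mice (-2.55 ± 0.29, edgeR adjusted p = 0.000472). Prkcq rose in defeated saline against non-stressed saline mice (1.67 ± 0.28, edgeR adjusted p = 0.00999, lost without non-stressed saline replicate 1 or 2, at most 0.0621). Prkce had 0.040 ± 0.16 in SHNK mice against defeated saline mice (edgeR adjusted p = 0.913), with the opposite sign without SHNK replicate 1 (-0.089) or defeated saline replicate 2 (-0.016). Ptpn4, the closest relative of Ptpn3, rose by 0.46 ± 0.11 (edgeR adjusted p = 0.0253), a call lost without SHNK replicate 2 or 3 or defeated saline replicate 2 or 3 (at most 0.122).

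Calb2, which encodes calretinin, had a log2 fold change of -0.19 ± 0.12 in SHNK mice against defeated saline mice (edgeR adjusted p = 0.351). Of 5 EF-hand genes, 1 rose and 2 fell there. Necab1 rose by 0.44 ± 0.12 (edgeR adjusted p = 0.0496), a call lost with upper-quartile scaling, without a filter, and without SHNK replicate 2 or 3, any of the defeated saline replicates or non-stressed saline replicate 1 or 2 (at most 0.251). Necab2 (-0.86 ± 0.16) and Necab3 (-1.10 ± 0.21) fell, each a call lost without SHNK replicate 3 (edgeR adjusted p = 0.0582 and 0.0524). For cholecystokinin, the receptor gene Cckbr fell to 3.79 ± 1.33 CPM in SHNK mice, against 7.70 ± 0.153 CPM in defeated saline mice (-1.02 ± 0.27, edgeR adjusted p = 0.0374, lost without SHNK replicate 2 or 3 or any of the defeated saline replicates, at most 0.173). The other 5 genes of cholecystokinin processing and reception did not pass in that comparison. The prohormone convertase Pcsk1 rose in defeated saline against non-stressed saline mice (1.09 ± 0.24, edgeR adjusted p = 0.0387), a call lost without a filter, with limma voom and without SHNK replicate 3, defeated saline replicate 2 or 3 or any of the non-stressed saline replicates (at most 0.155).

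Levels between genes were compared per length, as CPM per kilobase of exon in GENCODE M21. In non-stressed saline mice the order was Cck at 269 ± 43.7, Prkcd at 146 ± 31.1, Calb1 at 119 ± 5.60, Tcf7l2 at 105 ± 6.83, Tnnt1 at 101 ± 10.9, Rora at 48.1 ± 4.74, Lef1 at 17.2 ± 2.24, Plekhg1 at 5.85 ± 0.320 and Ptpn3 at 5.15 ± 0.0847 (SD, n = 3). The range of libraries of Prkcd overlapped with those of Calb1, Tcf7l2 and Tnnt1, and that of Tcf7l2 with that of Tnnt1. These ranges alone do not order the pairs, and the order of the genes within each library was not examined. With the median transcript length instead, Tcf7l2 (149) came above Calb1 (119). Mean Tnnt1 and Tcf7l2 were 125 ± 19.5 and 105 ± 8.23 in SHNK mice and 71.2 ± 20.3 and 96.8 ± 11.9 in defeated saline mice, and in both groups the libraries of the pair overlapped.

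**Figure D4:**
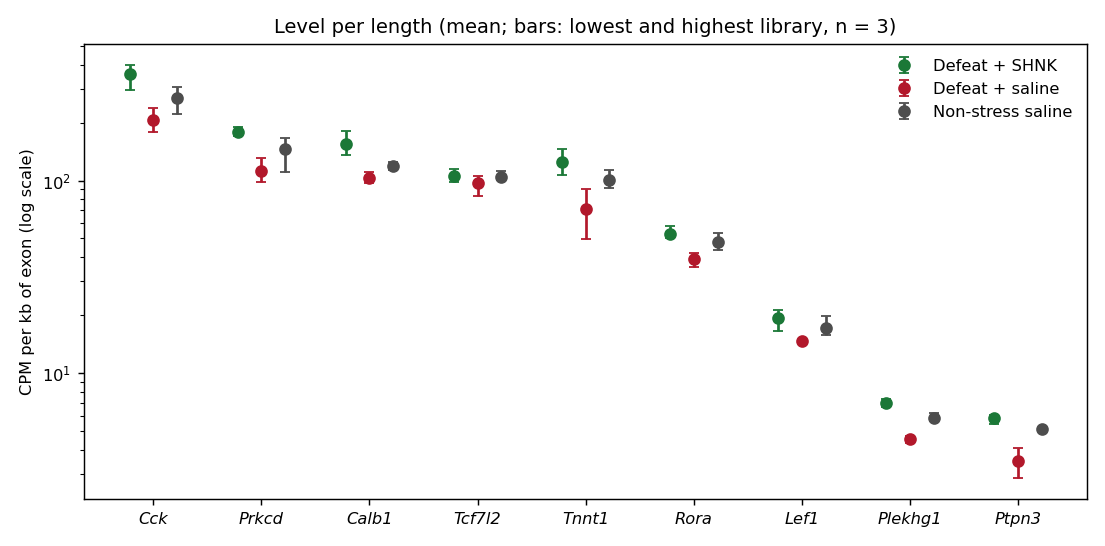
CPM per kilobase of exon on a log axis for each gene in SHNK mice, defeated saline mice and non-stressed saline mice; points are means and bars run from the lowest to the highest library (n = 3). In non-stressed saline mice levels span from 5.15 for Ptpn3 to 269 for Cck.

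The genes whose profile over the 9 libraries was most like that of each member were found by the root mean square difference of centred log2 CPM, among the 9844 genes whose log2 CPM averaged 3 or more. Calb1 was nearest to Vsnl1 (0.038) and Cd47 (0.050), beside its own standard deviation of 0.28 over the libraries. Rora (standard deviation 0.22) was nearest to Camk4 (0.043) and Cacnb4 (0.068), Plekhg1 (0.28) to Kcnc2 (0.076) and Kcnj3 (0.082), and Lef1 (0.21) to Zfp385b (0.065) and Atrnl1 (0.073). Tcf7l2 was nearest to Camk2d (0.047) and Exoc5 (0.048), beside its own standard deviation of 0.13. The differences were wider for genes that themselves varied more over the libraries. Cck (standard deviation 0.40) was nearest to Nexn (0.107) and Rasl11a (0.114), and Prkcd (0.35) to Rab37 (0.114) and Patj (0.120). Ptpn3 (0.37) was nearest to Gabrd (0.135) and Rgs7bp (0.143), and Tnnt1 (0.45) to Endou (0.169) and Nr2f1 (0.175). Among the members themselves Plekhg1 and Rora were the closest pair (0.128) and Tcf7l2 and Tnnt1 the most distant (0.443).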

How the data were processed

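RNA came from a Direct-zol kit, and libraries were made from 100 ng of total RNA with the SMARTer Ultra low RNA and TruSeq kits, per the labels' protocols. The deposited table holds raw read counts per gene symbol made by the authors. The submitters' processing notes name the tools Trimmomatic 0.38, HISAT2 and StringTie and the builds GRCm38 and mm10. How each tool was set, and whether counting used strand, is not given there. Each of the 18956 symbols has a count of at least 1 in every library, so a gene silent in any library is outside the table.

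Genes were kept with filterByExpr (minimum count 10, minimum total 15; 762 left out), TMM-scaled, and 1 quasi-likelihood model took in all 3 groups, with edgeR 4.0.16 in R 4.3.3 (common biological coefficient of variation 0.132). P-values were adjusted by Benjamini-Hochberg across the 18194 genes (threshold 0.05). The standard error of a log2 fold change is its size over the root of the F statistic. Log2 CPM used a prior count of 2. The pipeline was tested on simulated data. Alternatives were DESeq2 1.42.0, limma 3.58.1 voom, other scalings and filters, a replicate block, the compared groups only and each library left out. The members, the lists and the rule for named genes (the 9 members, called list genes up to 4 a list, close relatives and 2 like profiles per member) were chosen with earlier results of these data known. Some genes the rule allows are not reported here. Gene coordinates and promoters are RefSeq's on GRCm38.p6.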

Additional observations from a re-analysis of the deposited data

How the results depend on the processing

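Of 459 log2 fold changes of the 9 genes under 17 alternatives, 429 kept their direction and their side of the threshold, 23 lost a call, 3 gained one and 4 changed sign, all 4 of Tcf7l2 in SHNK against non-stressed saline mice (-0.035 with limma voom, -0.059 without SHNK replicate 3, -0.024 and -0.020 without non-stressed saline replicate 2 or 3, and -0.059 to 0.061 over the fits that left out 1 library). Prkce changed sign in SHNK against defeated saline mice without SHNK replicate 1 (-0.089) and defeated saline replicate 2 (-0.016), with a range of -0.089 to 0.18 on leaving out 1 library.

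In SHNK against defeated saline mice, leaving out 1 library gave 4 to 8 of the 9 genes called and 176 to 1385 of all genes, and DESeq2 called 2004 and limma voom 2377 genes (1167 as reported). In defeated saline against non-stressed saline mice leaving out 1 library gave 0 to 1 of the 9 genes and 40 to 306 of all genes (213 as reported). DESeq2 called 2 of the 9 and 470 genes, limma voom 102 genes, and the replicate block and the compared groups only 0 of the 9. In SHNK against non-stressed saline mice DESeq2 called 2 of the 9 and 985 genes, against 1 gene as reported. There were 0 with upper-quartile scaling, no filter or a filter of 1 CPM in 3 libraries, 9 in the compared groups only, 6 with the replicate block and 0 to 749 without 1 library (749 without non-stressed saline replicate 2).

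Libraries with the same replicate number did not deviate together (r from -0.10 to 0.106 over 9 pairs, 1 above 0.1), so the numbers are not taken to pair them. With the block 8 of the 9 genes were called in SHNK against defeated saline mice, as without it, and 878 of all genes. The block ended the call of Ptpn3 in defeated saline against non-stressed saline mice (edgeR adjusted p = 0.0531) and of Pcsk1 there (0.0631), and that of Necab1 in SHNK against defeated saline mice (0.0674). Counting error is close to the spread of the least abundant of the 9 genes in some groups, and 3 libraries a group leave most calls open to the loss of 1 library.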
